A study of Mus musculus with 2 samples.

Results

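In the control library of a mouse islet single-cell study, 187 cells devoted a large part of their messenger RNA to both Sst and Ppy, the genes of the hormones somatostatin and pancreatic polypeptide. A cell was a member when Sst made up at least 5% and Ppy at least 5% of its unique molecular identifiers (UMIs, counted mRNA molecules), while Gcg and the summed insulin genes Ins1 and Ins2 each stayed under 5%. The members were 187 of 2496 control cells (7.49%, exact 95% binomial interval 6.49 to 8.60%) and of 5447 cells in both libraries. They were compared with 343 control cells that passed only the Sst threshold (Sst-only) and 195 that passed only the Ppy threshold (Ppy-only). The members were thus chosen on measured Sst, Ppy, Gcg and insulin, and the shares of those genes are given as a description only.

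Cells came from mice 9 days old and were sorted for the tdTomato reporter. The control genotype was Neurod1 Cre/+; Isl1f/+, and the library labelled Isl1CKO was Neurod1 Cre/+; Isl1f/f, so both carried the Neurod1 Cre allele, which acts in endocrine cells, and the control can have lost Isl1 on 1 allele. Isl1 is a LIM-homeodomain gene active throughout the endocrine islet, and the study deleted it to follow the endocrine lineages. Each genotype was 1 library that pooled 6 samples, so no difference below has a replicate check, no p-value is given, and every interval is an exact 95% one for counting error alone. Actinomycin D, a blocker of transcription, was present while the tissue was dissociated.

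Delta cells of the islet make somatostatin, which restrains the release of insulin and glucagon from neighbouring cells. Gamma cells, also called PP cells, make pancreatic polypeptide, which slows exocrine secretion and gut movement. Ppy belongs to the neuropeptide Y family together with Pyy, the gene of peptide YY, and Pyy is transcribed in several islet cell types around birth. Hhex is a homeodomain factor that delta cells need.

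The members are defined by the 2 hormone genes, so the 250 bases before each annotated start are shown (RefSeq, GRCm38.p6, both genes on the minus strand, printed 5' to 3'). Capitals mark matches, on either strand, to the cyclic AMP response element TGACGTCA, to TATAAA and to the homeodomain core TAAT, which do not overlap one another here.
Sst chr16:23890845-23891094: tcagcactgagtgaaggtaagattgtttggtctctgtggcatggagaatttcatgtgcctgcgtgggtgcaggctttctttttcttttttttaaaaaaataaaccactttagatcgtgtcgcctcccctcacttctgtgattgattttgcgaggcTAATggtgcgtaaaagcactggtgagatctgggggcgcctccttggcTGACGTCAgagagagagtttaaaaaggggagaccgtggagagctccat
Ppy chr11:102101320-102101569: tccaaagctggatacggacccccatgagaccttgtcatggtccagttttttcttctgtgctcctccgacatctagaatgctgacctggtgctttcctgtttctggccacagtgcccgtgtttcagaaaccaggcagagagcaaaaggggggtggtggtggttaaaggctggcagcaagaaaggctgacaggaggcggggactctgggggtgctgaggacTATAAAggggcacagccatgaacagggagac
The Sst window held 1 TGACGTCA, beginning 48 bases before the start, and 1 TAAT beginning 95 bases before it. The Ppy window held 1 TATAAA, beginning 31 bases before the start, and no match to the other motifs. Among 32851 promoter windows of the same length, 1.55% held TGACGTCA, 12.4% held TATAAA and 54.9% held TAAT. These matches describe letters in the windows and are not shown to be sites in these cells. In GENCODE M21, Ppy lies at chr11:102099930-102101319 and Pyy at chr11:102106676-102107832 on the same strand, with 5356 bases between them. Sst lies on another chromosome, at chr16:23889573-23890958. That Sst start lies upstream of the RefSeq one, inside the printed window, so both marked Sst matches fall within the gene as GENCODE draws it. For Ppy the starts of both annotations match.

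The members carried high levels of 3 hormone genes at once. Sst ranged from 5.09 to 28.4% of a member's UMIs with a median of 10.8%, and Ppy from 5.01 to 18.1% with a median of 7.22%. Pyy, which the choice of cells did not use, had a median of 10.1% (2.40 to 21.9%) and reached at least 5% in 181 of the 187 members. The Sst-only cells had a Pyy median of 11.01% and the Ppy-only cells one of 19.5%, so by Pyy the members resembled the Sst-only cells. Insulin had a median of 0.272% and a maximum of 1.83% in the members, and Gcg a median of 0.0771% and a maximum of 0.757%. Iapp, the gene of islet amyloid polypeptide, had a median of 2.14% in the members, 2.26% in Sst-only cells and 0.586% in Ppy-only cells. Sst exceeded Ppy in 144 members and Ppy exceeded Sst in 42.

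**Figure D1:**
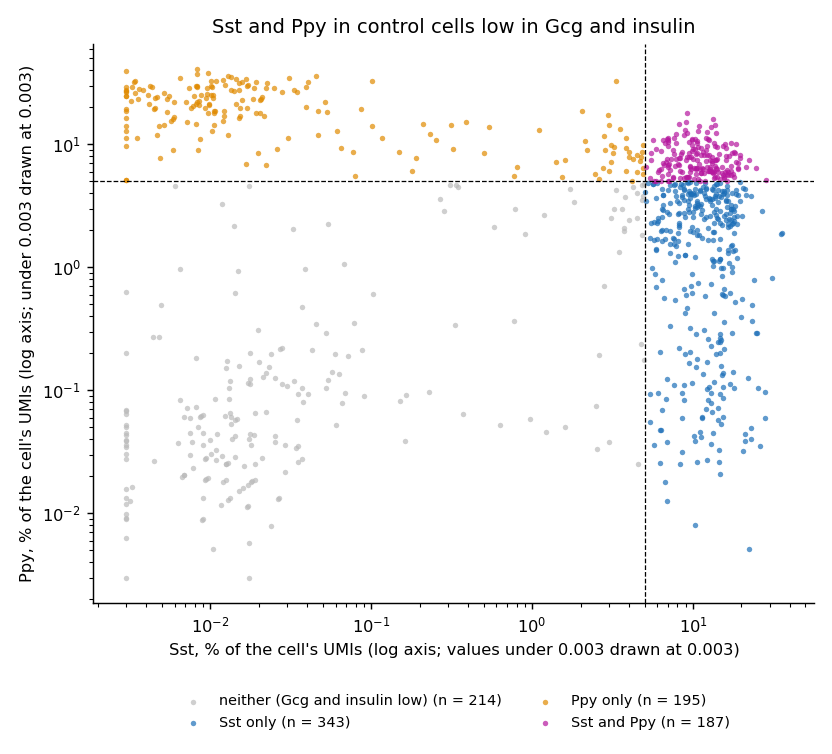
Sst (x axis) and Ppy (y axis) as percent of each cell's UMIs, both on log axes, for control cells with Gcg and insulin under 5%; dashed lines mark the 5% thresholds and each point is 1 cell. The 187 members lie beyond both lines at the top of a continuous column of Sst-rich cells, while most Ppy-only cells lie far to the left with little Sst.

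Ppy varied continuously among Sst-rich cells, so the Ppy threshold divided a range. The lowest Ppy share among members was 5.01% and the highest among Sst-only cells was 4.96%. There were 47 members with Ppy of 5 to 6% and 48 Sst-only cells with Ppy of 4 to 5%. The Sst-only cells had a median Ppy of 1.90%, with a range from 0.00518 to 4.96%. Members made up 35.3% (31.2 to 39.5%) of all Sst-rich cells and 49.0% (43.8 to 54.1%) of all Ppy-rich cells. Within the members Spearman's rho between the shares of Ppy and Sst was -0.085 across 187 cells of 1 library. Between those of Ppy and Pyy it was 0.049. The thresholds on Sst and Ppy cut the range of both shares, so these values cannot show how the hormones relate across cells.

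The Ppy-only cells were of more than 1 kind. In 143 of the 195 Sst stayed under 0.1% of UMIs, and these had a median Ppy of 22.8%. In another 39 Sst made up 0.5 to 5%, with a median of 3.10%, and their Ppy median was 8.27%. In the remaining 13 Sst lay between 0.1 and 0.5%, and their Ppy median was 11.3%. These limits of 0.1% and 0.5% were chosen after the data were seen. The 143 cells are called gamma cells below, from their Ppy, their Pyy median of 21.6% and their near absence of Sst. Other genes listed as gamma markers were mixed. Levels are in CPM, the UMIs of a gene per 1000000 UMIs outside the islet hormone genes. Meis2 stood at 785 CPM in members, 769 in Sst-only cells, 558 in all Ppy-only cells and 502 in the 143 gamma cells. Etv1 went the other way, at 225, 262, 385 and 419 CPM in the same order. Fxyd2 stood at 12.8 CPM in members, 13.4 in Sst-only cells and 5.73 in all Ppy-only cells. Tspan8, also listed, stood at 1568 CPM in the gamma cells and is compared below.

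Hhex marked the members as it marked the Sst-only cells. A Hhex UMI was present in 184 of 187 members, 330 of 343 Sst-only cells and 9 of 143 gamma cells. After each cell was thinned to the minimum depth of the cell filter the shares were 92.0% in members, 87.5% in Sst-only cells and 4.20% in gamma cells. In glucagon-rich cells, which should lack Hhex, 2.96% of cells had a UMI (0.821% after thinning), at a median depth of 20410 UMIs against 14543 in the members. The level of Hhex was 637 CPM in members (602 to 674), 648 in Sst-only cells and 142 in Ppy-only cells. Hhex lies at chr19:37434810-37440731. Hhex is 1 of the markers given for these cells, and the label held for it.

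The members' whole profile was close to that of the Sst-only cells. Of 7440 genes with at least 50 UMIs in the class with the higher CPM, 95.9% lay within 1.5-fold of each other, and the correlation of log2 CPM across genes was 0.983 (genes are not independent replicates). By a size rule of 2-fold, 9 genes were higher in members (0.121% of those compared) and 62 were lower (0.833%). Against Ppy-only cells only 84.9% of 6600 genes lay within 1.5-fold and the correlation was 0.913, with 235 genes higher in members (3.56%) and 163 lower (2.47%). When CPM was taken over all UMIs, hormones included, the latter comparison gave 445 genes higher and 117 lower; hormones filled a median of 41.8% of UMIs in Ppy-only cells and 31.9% in members.

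**Figure D2:**
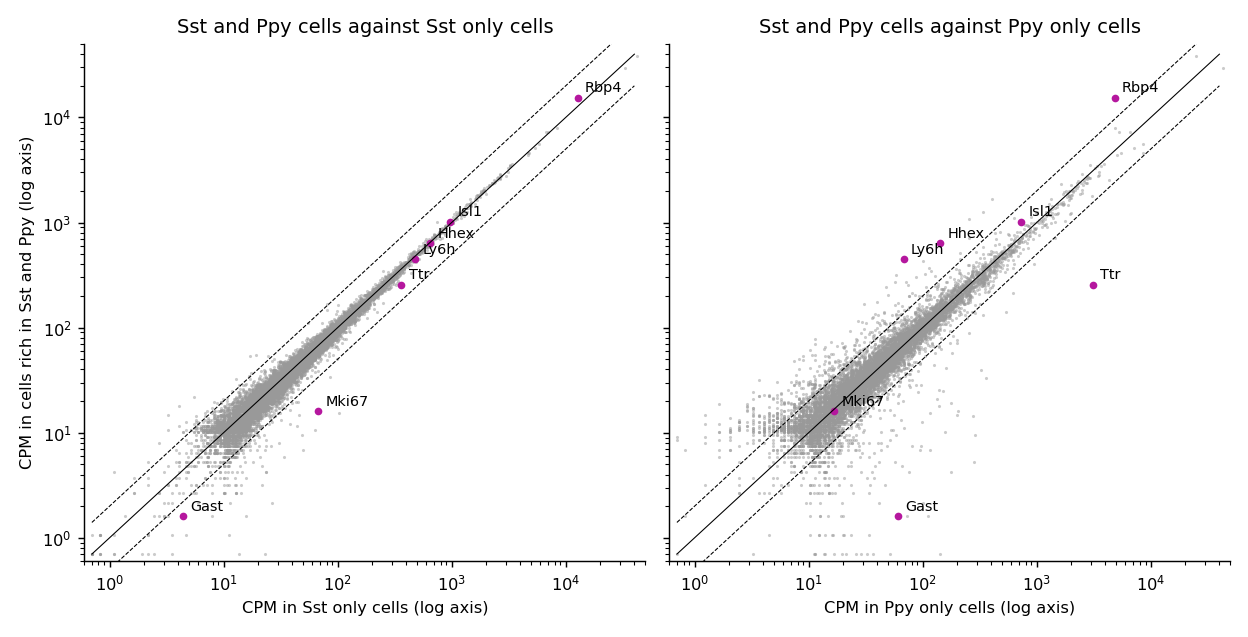
CPM of each gene in the members (y axis) against Sst-only cells (left) and Ppy-only cells (right), on log axes; each point is a gene, the solid line marks equal levels, the dashed lines mark 2-fold, and levels under 0.7 CPM are drawn at 0.7. Points hug the line on the left, where Hhex, Isl1 and Ttr lie between the dashed lines, and on the right Hhex and Ly6h lie above them and Ttr and Gast below.

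Among delta cell genes, none of the 12 compared (of 16 listed) differed 2-fold between members and Sst-only cells, with a median log2 ratio of 0.08 beside -0.04 over all genes compared. Over all genes 0.121% were higher and 0.833% lower, so this count is near the background. Rbp4, the retinol carrier, stood at 15363 CPM in members, 12777 in Sst-only cells and 4811 in Ppy-only cells, and was 1.202-fold higher in members than in Sst-only cells (1.19 to 1.22). Ghsr, the ghrelin receptor that delta cells use, stood at 48.9 CPM in members, 47.5 in Sst-only cells and 9.01 in Ppy-only cells. Cd24a, a surface glycoprotein, stood at 1083, 1110 and 256 CPM in the same order. Fam159b stood at 1687, 1441 and 407 CPM, and Ptprz1, a receptor phosphatase, at 205, 172 and 49.5 CPM. Against Ppy-only cells 9 of the 12 delta cell genes were at least 2-fold higher in members, beside 3.56% of all genes, and the list's median log2 ratio was 1.86 beside 0.00 over all genes compared.

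The genes with the firmest excess over Ppy-only cells, ranked by the bound of the interval nearest to no difference, were Ly6h, Dct, Frzb, Slc16a7, Dpp6, Cfap61, Hhex, Ehf, Sdk2 and Cacna2d2. Ly6h, a membrane-anchored protein of the Ly6 family, stood at 450 CPM in members, 480 in Sst-only cells and 68.4 in Ppy-only cells, a 6.57-fold excess over the latter (5.56 to 7.81). Frzb, a secreted inhibitor of Wnt signalling, stood at 313, 281 and 58.1 CPM. Dpp6, a subunit that modifies potassium channels, stood at 243, 236 and 47.9 CPM, and Ehf, an ETS family factor, at 273, 286 and 57.3 CPM. All 10 genes lay between 0.936 and 1.40 times the Sst-only level. The Ppy-only class holds the 39 cells with intermediate Sst and the 13 with Sst of 0.1 to 0.5%. Hhex stood at 482 CPM in those 13 and at 22.1 in the gamma cells. Every Ppy-only level in this report includes these cells. Against the 143 gamma cells alone, a group set after the data were seen, the differences were larger for all 10. Leaving out cells that carried Hhex makes its difference larger, so this is no separate support. The log2 ratio of Ly6h was 4.70 in place of 2.72, that of Frzb 4.70 in place of 2.43 and that of Hhex 4.85 in place of 2.17.

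Among the genes with the firmest deficit against Ppy-only cells were Ociad2, Kctd12b, Tmsb15b2, Pdk4, Higd1a, Galnt13, Ffar1 and Edn3. Higd1a, a mitochondrial protein, stood at 2.13 CPM in members, 3.00 in Sst-only cells and 99.9 in Ppy-only cells, 46.9-fold lower in members than in the last. Ffar1, a fatty acid receptor, and Pdk4, a kinase that restrains pyruvate oxidation, had no UMI in members against 80 and 89 UMIs in Ppy-only cells, and were at least 20.5-fold and 22.8-fold lower at a floor of 3 UMIs over the class. Edn3, the gene of endothelin 3, had 3 UMIs in members and 179 in Ppy-only cells. Tmsb15b2 shares exon sequence with neighbouring thymosin genes, so its count is uncertain.

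Alpha cell genes other than Gcg separated the classes as well. Of 10 compared, 9 were at least 2-fold lower in members than in Ppy-only cells and 1, Dpp10, was higher, beside 2.47% and 3.56% of all genes, and the list's median log2 ratio was -3.03. Ttr, the gene of transthyretin, stood at 257 CPM in members (235 to 281), 362 in Sst-only cells and 3122 in Ppy-only cells. Irx2, a homeodomain factor of alpha cells, had 14 UMIs in members, 30 in Sst-only cells and 54 in Ppy-only cells. These classes held 1879939, 3662391 and 2442370 UMIs outside the hormones, so the totals are not levels. Against Sst-only cells 2 of 6 were lower, beside 0.833% of all genes, Gc among them, at 14.9 CPM in members and 45.9 in Sst-only cells.

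Of 3 other peptide genes compared with Ppy-only cells, Gast and Cck were at least 2-fold lower in members, beside 2.47% of all genes. Sct was at least 2-fold higher, beside 3.56%. Gast, the gastrin gene, had 3 UMIs in members, 16 in Sst-only cells and 148 in Ppy-only cells (1.596, 4.369 and 60.6 CPM). Cck was 4.62-fold lower in members than in Ppy-only cells, while Sct, the secretin gene, was 3.07-fold higher (1.89 to 5.11). Lpl, lipoprotein lipase, stood at 14.4 CPM in members, 15.02 in Sst-only cells and 276 in Ppy-only cells. Cadps, a priming factor of granule release, was 13.8-fold lower, and Robo2, a Slit receptor, 17.9-fold lower.

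Most endocrine transcription factors differed less than 2-fold between the classes. Isl1 stood at 1015 CPM in members (970 to 1061), 976 in Sst-only cells and 729 in Ppy-only cells, and 186 of 187 members had an Isl1 UMI. Pax6 was nearly level at 381, 388 and 380 CPM. Of 24 factors compared with Ppy-only cells, 2 (Hhex and Rfx3) were at least 2-fold higher in members, beside 3.56% of all genes, and 7 were lower, beside 2.47%. The list's median log2 ratio was 0.08. The lower ones included Irx2, Nkx2-2, Nkx6-1 and Pou3f4. Pou3f4 had 2 UMIs in members against 50 in Ppy-only cells. Nkx2-2 stood at 62.2 CPM in members, 65.5 in Sst-only cells and 144 in Ppy-only cells. Against Sst-only cells 2 of 20 factors were lower in members, beside 0.833% of all genes, Nkx6-1 among them. None was higher, beside 0.121%.

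Genes of the secretory machinery were compared next. None of 16 granule and prohormone processing genes, 15 exocytosis genes, 14 ion channel genes or 16 genes of the unfolded protein response differed 2-fold between members and Sst-only cells, where 0.121% of all genes were higher and 0.833% lower, so these counts are near the background. Hspa5, the chaperone of the endoplasmic reticulum, stood at 1493 CPM in members, 1367 in Sst-only cells and 1295 in Ppy-only cells. Pcsk1, a prohormone convertase, stood at 71.3, 109 and 173 CPM, and was 2.43-fold lower in members than in Ppy-only cells. Cacna1h, a T-type calcium channel subunit, was the 1 ion channel gene of 13 compared that was at least 2-fold higher than in Ppy-only cells. It stood at 48.4 against 18.8 CPM, and 3.56% of all genes were higher in that comparison. Of 8 receptor genes, Ghsr was higher in members than in Ppy-only cells, beside 3.56% of all genes. Ffar1 and Gpr119 were lower, beside 2.47%. None of 19 oxidative phosphorylation genes differed 2-fold in either comparison, and none of 9 immediate early genes differed 2-fold from Sst-only cells. These counts too are near the shares over all genes. Of 12 adhesion genes, Efna5, an ephrin, was lower in members than in Sst-only cells, beside 0.833% of all genes.

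The few differences from Sst-only cells fell into cell cycle and exocrine genes. Of the 9 genes that were higher in members, Cpa1, Ctrb1, Pnliprp1, Prss2 and Reg1 are digestive enzyme or acinar genes, and Cpb2, B3galnt1, Mcm3 and Slc37a4 were the others. Pnliprp1, Reg1 and Cpb2 fall outside the rule for named genes and were named after their values were seen. The acinar genes as a list summed to 854 CPM in members, 489 in Sst-only cells and 730 in Ppy-only cells, with 1 of 12 at 0 in each class. A single member held 35.0% of the Prss2 UMIs, 27.9% of those of Cpa1 and 26.1% of those of Ctrb1. Acinar RNA that reached these droplets from other cells was not tested. Slc37a4, the glucose 6-phosphate transporter, stood at 36.7 CPM in members and 17.5 in Sst-only cells (2.10-fold, 1.47 to 3.00). Tspan8, a tetraspanin and the sixth of the genes ranked highest, stood at 1003 CPM in members, 739 in Sst-only cells and 1442 in Ppy-only cells. The remaining genes of that rank were Mllt3, Abhd11os, Dlk1, Areg, Enkur and Spata24, all between 1.53-fold and 1.91-fold higher in members. Without each gene's highest cell, only 3 genes were at least 2-fold higher, an alternative chosen after the data were seen.

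Cell cycle genes were lower in members, and a few cells carried them. Of 15 compared, 9 were at least 2-fold lower than in Sst-only cells, beside 0.833% of all genes, and Mcm3, a replication factor, was higher. Cenpf, a kinetochore protein, stood at 15.4 CPM in members and 103 in Sst-only cells, and Mki67 at 15.96 and 67.2 CPM. Cells with at least 20 UMIs of the list per 10000 were 3 of 187 members (1.604%, 0.332 to 4.62%) and 14 of 343 Sst-only cells (4.08%, 2.25 to 6.75%), so the intervals overlapped. With those cells left out, an alternative chosen after the data were seen, 25 genes in place of 62 were at least 2-fold lower in members. Tph1, a tryptophan hydroxylase, had 50 UMIs in Sst-only cells, all in 1 cell, and 0 in members. With a hormone threshold of 2% its log2 ratio turned to 3.06.

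To place the members between the single-hormone classes, genes were chosen without using the members' levels. Their Sst-only and Ppy-only CPM differed at least 3-fold with the near interval bound above 2. There were 112 such genes higher in Sst-only cells (delta-side) and 78 higher in Ppy-only cells (gamma-side), hormones left out. A position of 1 is the level of the class in which the gene is high and 0 that of the class in which it is low, and an equal mix of the classes would lie near the middle. The counts that chose the genes also set these levels, so a gene high by counting error gives the members a lower position. With a minimum of 20 UMIs the delta-side median was 0.819, and with 200 it was 0.966. Delta-side genes had a median position of 0.886 in members (quartiles 0.645 and 1.09), and 93 of 112 lay nearer the Sst-only level. Under 1/4 of the way lay 14 genes, and apart from Tph1 they were genes of cell division such as Cenpf, Hmmr and Kif11. Gamma-side genes had a median position of -0.027, and the highest of the 78 lay at 0.170.

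The same genes were summed in each cell. The summed delta-side genes had a median of 12281 CPM in members (7322 to 18866), 12320 in Sst-only cells and 654 in gamma cells. The summed gamma-side genes had a median of 992 CPM in members (122 to 4441), 1049 in Sst-only cells and 10572 in gamma cells. Of the 187 members, 183 reached the 5th percentile of the Sst-only cells on the delta side, and 180 stayed at or below their 95th percentile on the gamma side. The 39 Ppy-only cells with Sst of 0.5 to 5% had median positions of 0.516 on the delta side and 0.040 on the gamma side. Their summed delta-side genes had a median of 10296 CPM, and 32 of the 39 passed the same delta-side limit. These 39 cells are part of the class that helped to choose the genes and set the Ppy-only level. Their positions and sums therefore cannot be ranked against those of the members.

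**Figure D3:**
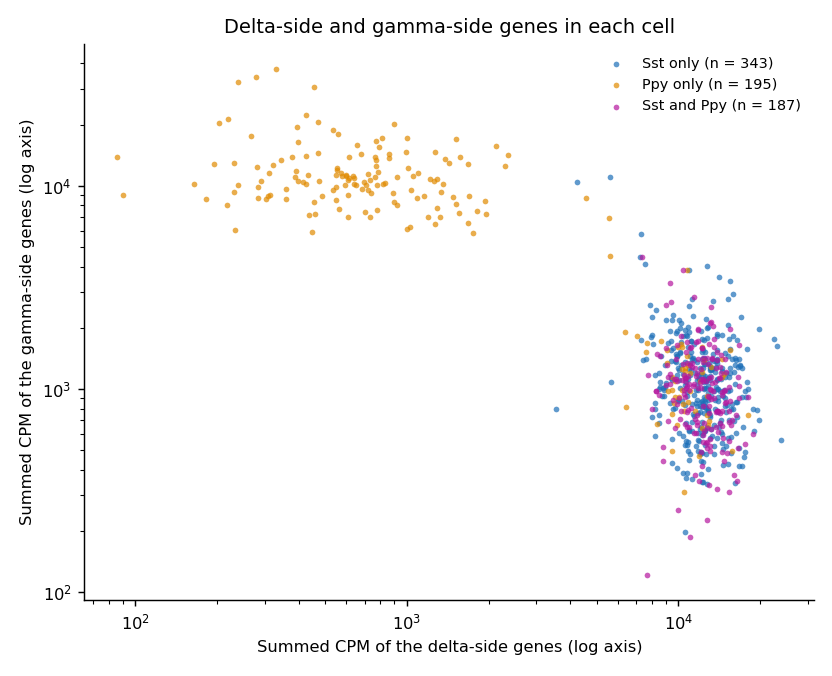
Summed CPM of the 112 delta-side genes (x axis) and the 78 gamma-side genes (y axis) in each cell, on log axes, 1 point per cell. Members and Sst-only cells share the cloud at the lower right, most Ppy-only cells form the cloud at the upper left, and a minority of Ppy-only cells lies within the members' cloud.

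Across the Sst-rich cells, gene levels were also followed from low to high Ppy in 6 bins, whose limits were chosen after the data were seen. Hhex was 696 CPM in the 51 cells with Ppy under 0.1%, 570 in the next bin (0.1 to 0.5%), then 712, 625 and 646, and 624 in the 71 members with Ppy of 8% or more. The Hhex intervals of the first and last bins overlapped (628 to 770 and 567 to 684). Rbp4 was 11064 CPM in the lowest bin (10785 to 11348) and 15970 in the highest (15679 to 16265). Tspan8 stood between 704 and 785 CPM in the bins under 5% and at 968 and 1059 CPM in both bins of members. Isl1 ranged from 893 to 1075 CPM with no order along the bins. Lpl stayed between 9.26 and 16.7 CPM.

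**Figure D4:**
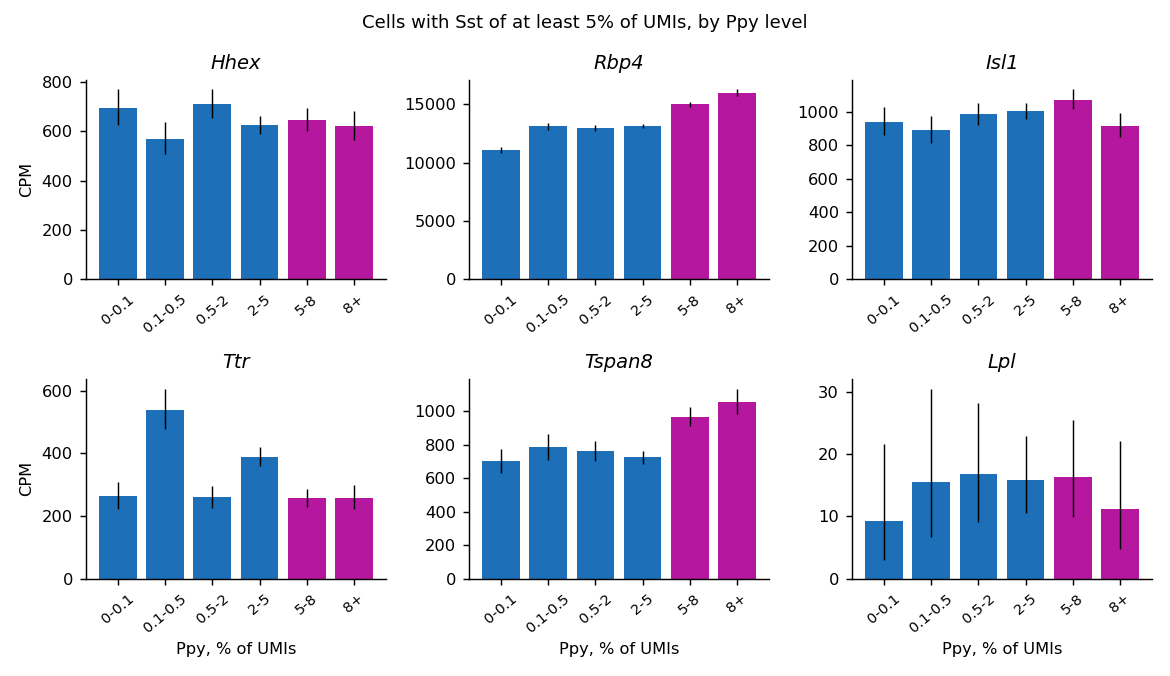
CPM of 6 genes in Sst-rich cells grouped by Ppy share (x axis, percent of UMIs); blue bars are Sst-only cells, purple bars are members, and error bars are exact 95% Poisson intervals. Rbp4 and Tspan8 were highest in the bins of members, Hhex and Isl1 showed no order, and Lpl stayed low throughout.

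Within the members, those with Ppy above Sst (42 cells) had Hhex at 711 CPM (632 to 798) and those with Sst above Ppy (144 cells) at 620 CPM (580 to 661). Of 3533 genes compared between these groups, 0 were 2-fold higher in the former (0%) and 77 were 2-fold lower (2.18%), of which 8 had an interval wholly past 2-fold. The delta-side position was 0.768 in members with Ppy above Sst and 0.894 in those with Sst above Ppy. The gamma-side position was -0.016 and -0.037 in the same order. Splitting the members at their median depth gave delta-side positions of 0.877 for the deeper and 0.881 for the shallower cells.

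In a nearest-neighbour search on 2000 variable genes without the hormones, members were interspersed with Sst-only cells. Of the 15 neighbours of each member, 33.8% on average were members, 49.6% were Sst-only cells and 1.82% were gamma cells. Most neighbours were Sst-rich for 185 of 187 members. Among their Sst-rich neighbours, members had 40.5% members and Sst-only cells had 37.7%, beside a base share of 35.3%.

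Whether 2 cells in 1 droplet, or free RNA, gave the 2 hormones was not tested, and the values here are a description. The members' median depth was 14543 UMIs, against 14289 in Sst-only cells and 25114 in gamma cells, and their median number of genes was 3636 against 3703 and 4069. Scrublet, which scores resemblance to simulated pairs of cells, called 0 of 187 members (upper limit 1.95%), 5 of 343 Sst-only cells and 63 of 2496 control cells (2.52%). Among other cells rich in a pair of hormones it called 6 of 7 with Sst and Gcg, 9 of 21 with Gcg and insulin, 3 of 22 with Ppy and Gcg and 1 of 20 with Ppy and insulin. Xist, transcribed from the inactive X of females, and a Y-linked transcript occurred together in 6 members (3.21%), 10 Sst-only cells (2.92%) and 4 Ppy-only cells (2.05%), a sign that pairs of cells of the same sex would not show. In barcodes under 100 UMIs, which hold mostly free RNA, insulin made up 47.4% of UMIs, Ppy 3.00% and Sst 1.601%; the rule that chose the members fixed how their own shares compare with these. Insulin-rich cells had a median Ppy share of 0.0228% and glucagon-rich cells one of 0.0797%.

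**Figure D5:**
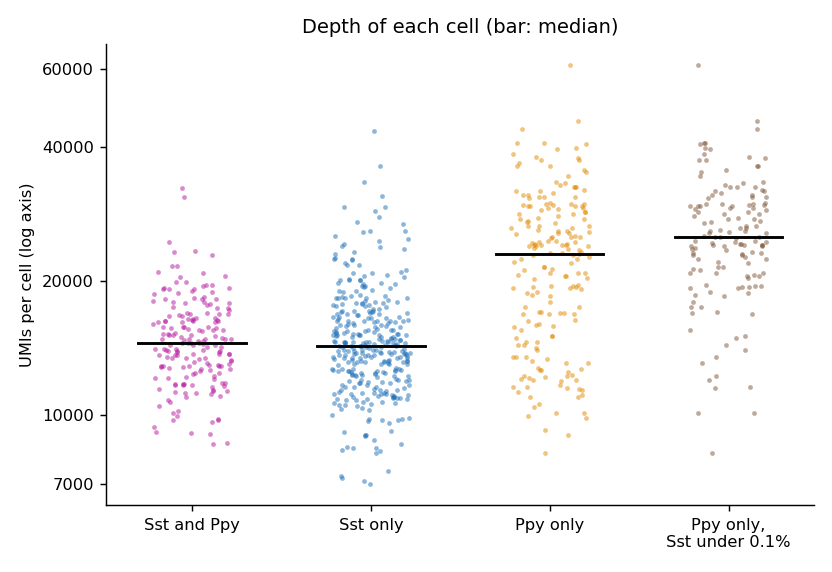
UMIs per cell (y axis, log scale) for members, Sst-only cells, all Ppy-only cells and the Ppy-only cells with Sst under 0.1%; each point is a cell and the bar is the median. Members and Sst-only cells cover the same range with medians of 14543 and 14289, below the median of 25114 in the last group.

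Markers of other tissues were also summed. Of 9 immune markers 7 were at 0, among them Ptprc and Tyrobp, while C1qa stood at 272 CPM in members, 160 of which had a UMI, 240 CPM in Sst-only cells and 72.1 in Ppy-only cells. The mesenchymal list summed to 44.7 CPM in members and 71.8 in Sst-only cells, with 4 of 10 genes at 0 in members. The endothelial list summed to 73.4 and 62.8 CPM with 4 of 8 at 0, and the erythroid list to 3.19 and 1.37 CPM with 4 of 7 at 0. The duct list, which holds Tspan8 and Sox9, summed to 1542 CPM in members, 1263 in Sst-only cells and 2015 in Ppy-only cells, and the neural and glial list to 162, 174 and 86.8 CPM.

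In the library labelled Isl1CKO, 1 of 2951 cells under the same filters was rich in both Sst and Ppy (0.0339%, 0.000858 to 0.189%), beside 187 of 2496 in the control. The single-hormone classes were as scarce there, with 4 Sst-only cells and 1 Ppy-only cell. With 1 library per genotype this is a count from each library and not a test of the genotypes. The control and Isl1CKO cells shared 4 barcodes, none of them in members.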

How the data were processed

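The authors deposited UMI counts per gene and barcode, whole numbers that were not normalized, per the labels and the values. The libraries were made with a 10x Chromium 3' kit from sorted cells, per the labels' protocols. The genome build GRCm38.p6, Seurat 4.3.0.1, STAR 2.7.3a and STARsolo appear in the submitters' processing notes, without their roles. Of 46983 gene identifiers, 46488 were found in GENCODE M21.

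A barcode counted as a cell with 6825 or more UMIs, 500 or more genes and no more than 15% of UMIs from mitochondrial genes. UMIs were summed per class, and CPM was taken over UMIs outside Ins1, Ins2, Gcg, Sst, Ppy, Pyy, Iapp and Ghrl. Genes with at least 50 UMIs in the class with the higher CPM were compared by a 2-fold size rule, with a floor of 3 UMIs for a class at 0. This minimum is harder to reach in the smaller class. Ratios carry exact conditional binomial intervals, levels Poisson and shares Clopper-Pearson intervals at 95%. Each genotype is 1 library and cells are not replicates, so there is no test.

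By rule, the text names, per comparison, the 10 highest and 10 lowest ratios by the interval bound nearest to no difference, the 10 top delta-side and gamma-side genes, and members of the gene lists, leaving out mitochondrial, ribosomal, uncharacterised, sex-linked marker, acinar and erythroid genes. The members and the lists were chosen with earlier results of these data known. The comparison was checked on simulated counts. Scrublet (scanpy 1.11.5, expected rate 2.00%) called doublets, which were kept. Neighbours used 30 principal components. The software was scikit-learn 1.9.0, matplotlib 3.10.9, pandas 2.3.3, scipy 1.17.1 and numpy 2.4.6 under Python 3.11.15. Alternatives varied the hormone and barcode thresholds, doublets, depth, background, scale and minimum count. Tmsb15b2 and Spata24 overlap other annotated exons on their strand, so their counts are uncertain. Some genes are withheld and not reported here.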

Additional observations from a re-analysis of the deposited data

How the results depend on the processing

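No paired analysis was possible because each genotype has 1 library. The positions kept their side under every alternative run, from 0.728 to 0.983 for delta-side genes and from -0.0459 to -0.000179 for gamma-side genes. The share of members was 15.8% at a hormone threshold of 2% and 0.681% at 10%, and stayed between 6.95 and 8.33% under the other alternatives. Counts of genes moved more, as follows.

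Genes at least 2-fold higher in members than in Sst-only cells, 9 in the report, were 19 at the 2% threshold, 0 at 10%, 1 after thinning every cell to the minimum depth, 4 with CPM over all UMIs, 37 and 2 with a minimum of 20 and 200 UMIs, and 3 without each gene's highest cell. Genes at least 2-fold lower, 62 in the report, were 960 at 10%, 16 after thinning, 243 and 4 with a minimum of 20 and 200 UMIs, and 25 without cycling cells. Against Ppy-only cells, genes higher in members (235) were 441 at 2%, 19 at 10%, 96 after thinning, 445 with CPM over all UMIs, 471 and 64 with a minimum of 20 and 200 UMIs, and 380 against Ppy-only cells with Sst under 0.1%. Genes lower in members (163) were 666 at 10%, 57 after thinning, and 351 and 47 with a minimum of 20 and 200 UMIs. Thinning and the higher minimum leave fewer genes to compare, and the 10% threshold leaves fewer members; other causes were not tested.

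Of 619 log2 ratios of the named genes under the alternatives, 4 changed direction, all in the comparison with Sst-only cells. At the 10% threshold the log2 ratio was -0.23 for Mllt3, -0.39 for Enkur and 0.18 for Ccnb2. At the 2% threshold it was 3.06 for Tph1. Depth limits genes under about 50 UMIs in a class.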

Other observations

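Genes of endocrine progenitors were detectable in members at the level of the Sst-only cells. Neurog3, the factor that starts endocrine differentiation, stood at 137 CPM in members (121 to 155), 158 in Sst-only cells and 46.3 in Ppy-only cells, and 125 of 187 members had a UMI. Sox9, a progenitor and duct factor, stood at 140, 127 and 45.5 CPM in the same order. Both were at least 2-fold higher in members than in Ppy-only cells, the only 2 of 10 progenitor genes compared, beside 3.56% of all genes. None of 9 differed 2-fold from Sst-only cells, where 0.121% of all genes were higher and 0.833% lower.

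A single control cell passed the thresholds for Sst, Ppy and Gcg together, at 43601 UMIs, and was left out of the members. Cells rich in Ppy and Gcg numbered 22, those rich in Ppy and insulin 20, and those rich in Sst and insulin 1, beside the 187 members.

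By Xist and Y-linked transcripts, 29 members had Xist only, 132 had Y-linked transcripts only and 20 had neither. The first 2 of these groups had median Ppy shares of 6.66 and 7.03% and median Sst shares of 10.8 and 10.9%.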
